A study of Arabidopsis thaliana with 2 samples.

Results

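EXLA1 (AT3G45970), EXPA8 (AT2G40610) and COB (AT5G60920) are 3 Arabidopsis genes of cell wall extension and cellulose deposition, out of 13356 genes with a probe set that names exactly 1 gene. They were chosen by name, with their readings on these arrays already known, so their values are given as a description and without a test. Expression had been measured on 2 Affymetrix arrays, 1 of sap from trichomes, which are single-celled leaf hairs, and 1 of sap from pavement cells, the ordinary cells between them. Both came from Columbia-0 plants at 5 weeks of age, with no treatment named beyond the sampling. Sap was drawn with microcapillaries and its RNA was amplified in 1 round, and the numbers of cells and plants behind each array were not given in the sources used here. Each group holds 1 array, so no difference below has a replicate check.

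Plant cells grow by yielding to turgor while the wall around them is loosened and rebuilt. Expansins are secreted proteins that loosen the contacts between cellulose microfibrils and xyloglucan, most of all in acidic walls. The family has alpha-expansins (EXPA) and beta-expansins (EXPB), with known or expected loosening activity, and expansin-like proteins (EXLA, EXLB), which share the fold but are known mainly from their sequence. EXPA8 is an alpha-expansin and EXLA1 an expansin-like A protein. COB encodes COBRA, a protein held at the outer face of the plasma membrane by a lipid anchor, which is needed for oriented cellulose deposition and directed expansion, best known in roots. It is a nuclear gene and not the mitochondrial cytochrome b gene of the same letters, whose probe set names 2 genes and was not used. Pavement cells expand by forming lobes, and mature trichomes carry a thick wall rich in cellulose.

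Signals are given on the log2 scale as deposited, and a difference is trichome minus pavement. A reading at or under 2.58 was treated as background, because the 27 probe sets for Bacillus transcripts, which the plant does not make, read from 1.52 to 2.58. That upper value came from 1 probe set, and the next highest reading was 2.21. A reading between 2.21 and 2.58 is thus called background on that probe set alone. Where the dimmer reading was background, the fold was computed against 2.58 and is written "at least". Such a limit holds on the deposited scale and does not allow for a difference in brightness between the arrays. The brightness of a probe set depends on its probes, so readings of different genes do not compare transcript amounts.

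The pavement array gave a bright reading for EXLA1, while the trichome array gave background. EXLA1 read 10.4 on the pavement array and 2.01 on the trichome array, from its single probe set. The difference was -8.36, and on the deposited scale the pavement reading was at least 221-fold above the trichome reading. EXPA8 read 2.04 in pavement and 2.19 in trichome, both at background, and has no fold. COB read 3.05 in pavement and 2.90 in trichome, a little above background in each, which gave a difference of -0.16 (1.12-fold higher in pavement). The trichome reading of EXLA1 and both readings of EXPA8 also lay below 2.21, so that their placement at background does not rest on the single Bacillus probe set that set the ceiling. In pooled sap, fewer cells with a transcript and less of it per cell cannot be told apart.

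**Figure D1:**
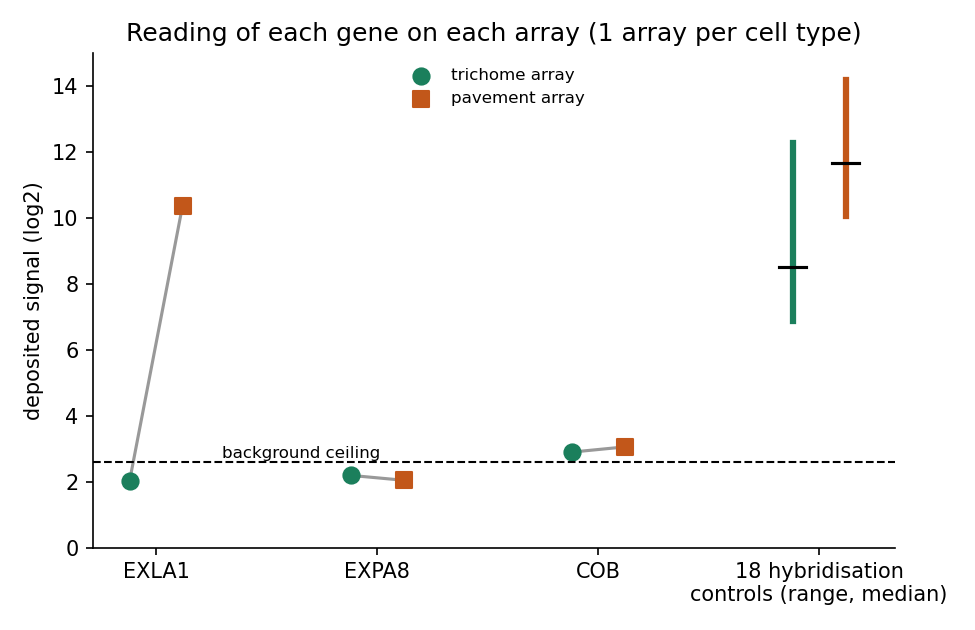
Deposited log2 signal (vertical axis) of EXLA1, EXPA8 and COB on the trichome array (circles) and the pavement array (squares), 1 array per cell type, with the background ceiling dashed and, at the right, the range (bar) and median (tick) of the 18 hybridisation controls on each array. EXLA1 runs from 2.01 in trichome to 10.4 in pavement, EXPA8 stays under the ceiling and COB lies just over it on both arrays.

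The only technical spread available was that between probe sets of the same gene. The SD of the difference, pooled over the 36 genes that had a probe set above background, was 0.95 on the log2 scale. Over all 146 genes with several probe sets it was 0.52. The difference of EXLA1 exceeded both values, and those of EXPA8 (0.15) and COB (-0.16) were smaller than both. Below, the spread between probe sets is the 0.95 unless stated. Either spread leaves out sampling, amplification and plants. EXLA1, EXPA8 and COB have 1 probe set each, so no second probe set checks their own readings.

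All 3 genes reached the median of all values (2.05) on at least 1 array, the floor for counting a gene, which lies below the background ceiling. Of the 3, EXLA1 alone differed by 2-fold or more, with the higher reading in pavement. Among the 8168 genes at or above that floor, 679 (8.31%) did so in that direction and 97 (1.19%) in the other. Since the genes were chosen on these arrays, nothing is read from that count. The split of all genes depended on the scaling: it was 335 in pavement and 269 in trichome after a lowess correction for mean level, and 346 and 374 after quantile normalization.

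The hybridisation controls differed in brightness between the arrays, which bears on the scale of each of these differences. A difference between the arrays and unequal amounts of control cannot be told apart here. The 18 hybridisation controls, bacterial and phage transcripts normally spiked in before hybridisation (amounts not given in the sources used here), had a median of 8.50 in trichome and 11.7 in pavement. Relative to their median difference of -3.15, EXLA1 was still lower in trichome, at -5.21, or at most -4.64 when its trichome reading is taken as the ceiling. COB moved to 2.99 on that scale. The controls read at 6.88 or more on both arrays, far brighter than COB, and the shift was not measured at its level. For COB the direction was not settled, since its difference was also positive after the lowess correction (0.18) and after quantile normalization (0.30). EXPA8 was background against background, so no scaling gives it a direction. For EXLA1 the values were -4.85 with lowess and -6.41 with quantile normalization, lower in trichome in each. Its trichome reading was at background, so these values give a direction and not a measured size.

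**Figure D2:**
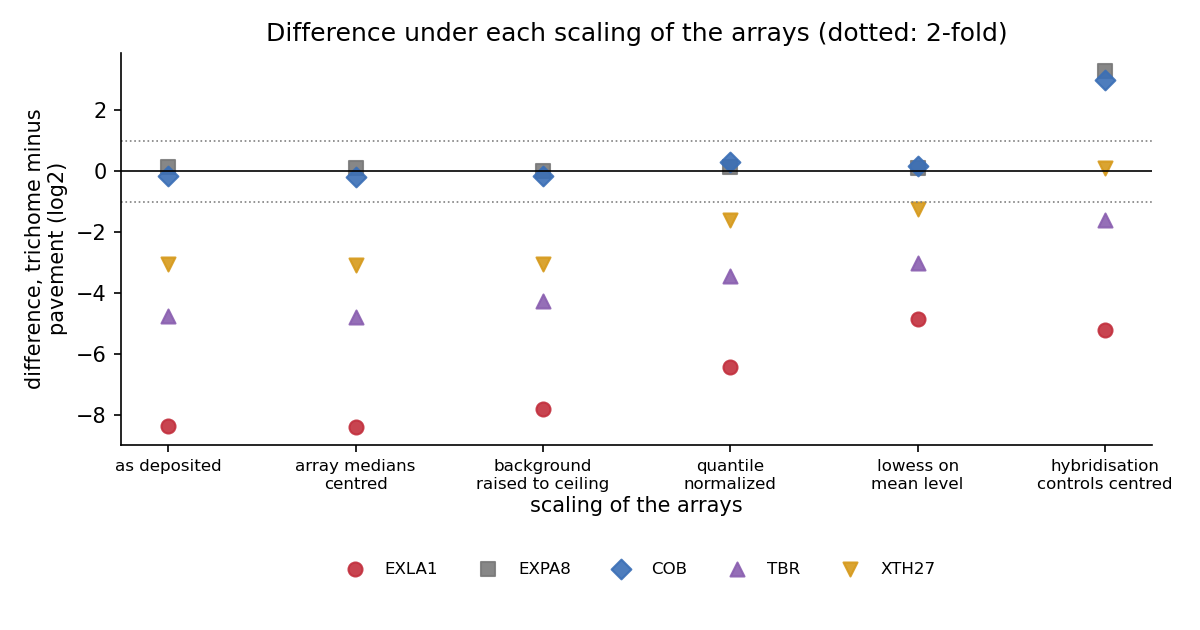
Difference in log2 signal, trichome minus pavement (vertical axis), for EXLA1, EXPA8, COB and the wall genes TBR and XTH27 under 6 scalings of the arrays (horizontal axis), with dotted lines at 2-fold either way. EXLA1, whose trichome reading is at background, lies between -8.39 and -4.85 throughout, whereas COB lies near 0 except at 2.99 when centred on the hybridisation controls, where EXPA8, at background on both arrays, also rises.

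EXLA1 was set against the other genes with bright readings in pavement. Apart from EXLA1, 53 genes read 9 or more on the pavement array. All 53 read lower in trichome, with a median difference of -4.87 (quartiles -5.75 and -4.08). That direction was nearly fixed by choosing genes on a high pavement reading, because no gene read above 9.26 in trichome. Of the 53, 2 were at background in trichome, and the rest read above it there. The 2 were HPR, the hydroxypyruvate reductase of photorespiration, and the peroxidase PRXR1. PRXR1, at 2.22 in trichome, counts as background only by the single Bacillus probe set that set the ceiling. Of the 26 other genes that read 10 or more in pavement, none was at background in trichome, and their trichome readings ran from 4.01 (AT5G40450) to 9.07 (atpE, a plastid gene of the ATP synthase), with a median of 6.32. EXLA1, at 2.01 in trichome, thus lay outside the range of these 26.

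The difference of EXLA1 was the widest of the 13356 genes, just ahead of AT2G25510 at -8.33. These positions were known when EXLA1 was chosen. AT2G25510, however, read 4.80 in trichome, above background, so that its difference is measured on both arrays, whereas that of EXLA1 is a limit. With trichome readings at background raised to the ceiling, EXLA1 stood at -7.79, behind AT2G25510.

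**Figure D3:**
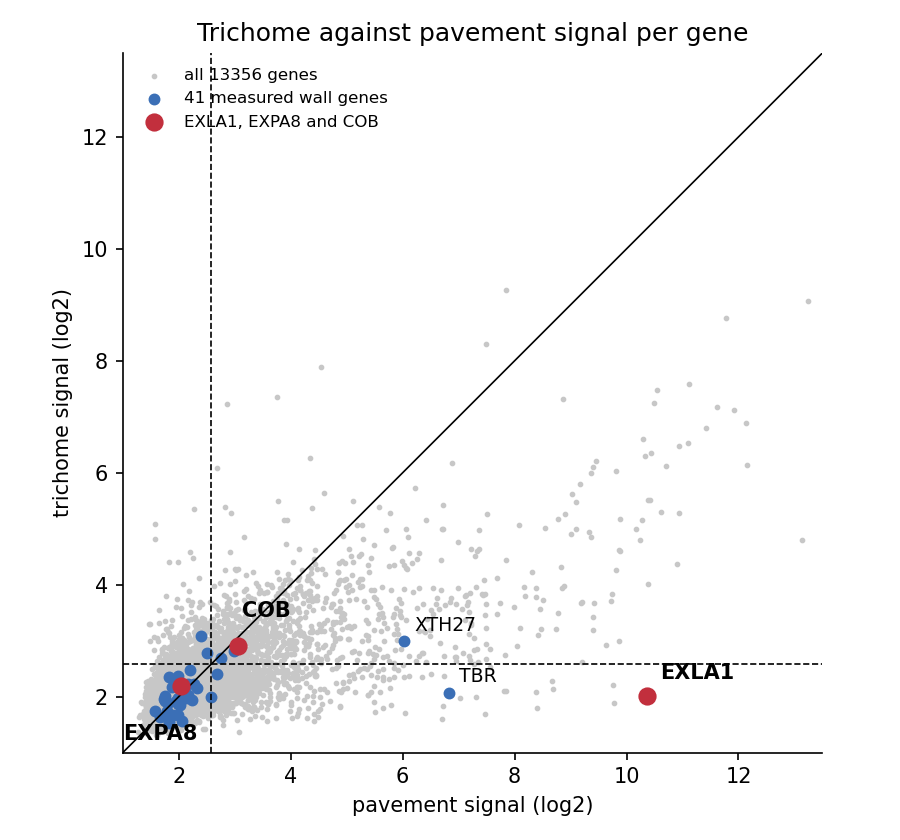
Trichome signal against pavement signal (both log2) for all 13356 genes (grey), the 41 measured wall genes (blue) and EXLA1, EXPA8 and COB (red), with the line of equal signal and the background ceiling dashed on each axis. EXLA1 sits at the lower right at 10.4 in pavement and 2.01 in trichome, below the other genes that bright in pavement, while EXPA8 and COB lie within the dense cloud.

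The genes with readings most like those of EXLA1 were HPR and PRXR1. Likeness was the distance between genes over their log2 readings on the 2 arrays, and no other gene lay within 0.25 of EXLA1. HPR, at a distance of 0.61, read 1.88 in trichome and 9.77 in pavement, and PRXR1, at 0.64, read 2.22 and 9.76. Farther away were AT5G38980 (1.11), AT2G25450 (1.17) and AT4G23670 (1.32), each of which read above background in trichome, at 2.999, 2.92 and 2.62.

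COB, by contrast, had many genes of like reading. A set of 146 genes lay within 0.25 of it. The nearest was PME61, a pectin methylesterase also named PME35, at a distance of 0.03 with readings of 2.91 in trichome and 3.02 in pavement. Next came AT1G52730 (2.93 and 3.05), AT3G11500 (2.91 and 3.02), KINESIN-13A (2.93 and 3.07), a microtubule motor with a known part in trichome branching, and AT3G15970 (2.90 and 3.09). With readings this close on just 2 arrays, the order among them is smaller than the spread between probe sets.

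The size of the COB difference was common among genes of its brightness. Apart from COB, 622 genes were above background on both arrays with a mean level from 2.5 to 3.5. Their median difference was -0.10, with quartiles of -0.40 and 0.11, and COB at -0.16 lay between those quartiles. In 211 of them (33.9%) the difference was no wider than that of COB. In this band a 2-fold excess was seen for 32 genes in pavement and for 4 in trichome. The limits of the band themselves cap how wide a difference can be, and genes at background on either array were left out.

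EXPA8 could not be told from unexpressed controls. Its difference of 0.15 lay within the range over the Bacillus probe sets, -0.21 to 0.60 (SD 0.18, n = 27 probe sets). A further 10731 genes were at background throughout, the quartiles of their differences being -0.12 and 0.21, and 3221 genes lay within 0.25 of EXPA8 over the readings. A transcript present at a low level, or probes far from the amplified 3′ end, can also give such readings, so absence of EXPA8 from either sap was not shown.

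Among the rest of the expansin superfamily, no other measured gene came near the pavement reading of EXLA1. Of 36 listed members, 18 had a probe set naming them alone in the annotation used. Of the 18, 15 gave background readings in both saps, against 10732 of all 13356 genes. The annotation did not list 8794 of the 22810 probe sets, so a gene not measured here can still have probes on the array. The closest relatives by class, EXLA2 and EXLA3, were at background, with EXLA2 at 1.67 in trichome and 1.90 in pavement and EXLA3 at 1.98 and 2.13. EXLB1 read 2.17 and 1.88. Thus 1 of the 3 expansin-like A genes gave signal, on 1 array.

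Of the 10 measured alpha-expansins, 2 were above background on at least 1 array, against 2624 of all 13356 genes. EXPA15 read 2.70 in trichome and 2.76 in pavement, just above background on both arrays. EXPA21 read 3.08 in trichome and 2.40, at background, in pavement, at least 1.41-fold higher in trichome. Its difference of 0.68 was within the 0.95 spread between probe sets but above the 0.52 over all genes with several probe sets. EXPA7 and EXPA18, known for their part in root hair growth, were at background, at 2.35 and 1.75 in trichome and 1.82 and 1.58 in pavement. The other alpha-expansins beside EXPA8 (EXPA4, EXPA9, EXPA16, EXPA20 and EXPA24) read from 1.64 for EXPA4 to 2.298 for EXPA20 in trichome, and from 1.67 for EXPA4 to 2.15 for EXPA9 in pavement. The 4 beta-expansins measured (EXPB1, EXPB2, EXPB3 and EXPB5) were all at background, between 1.67 and 2.02 in trichome and between 1.98 and 2.16 in pavement. EXPB1 had the same value, 1.98, on both arrays, and 177 genes in all had values that were equal to the last deposited digit.

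**Figure D4:**
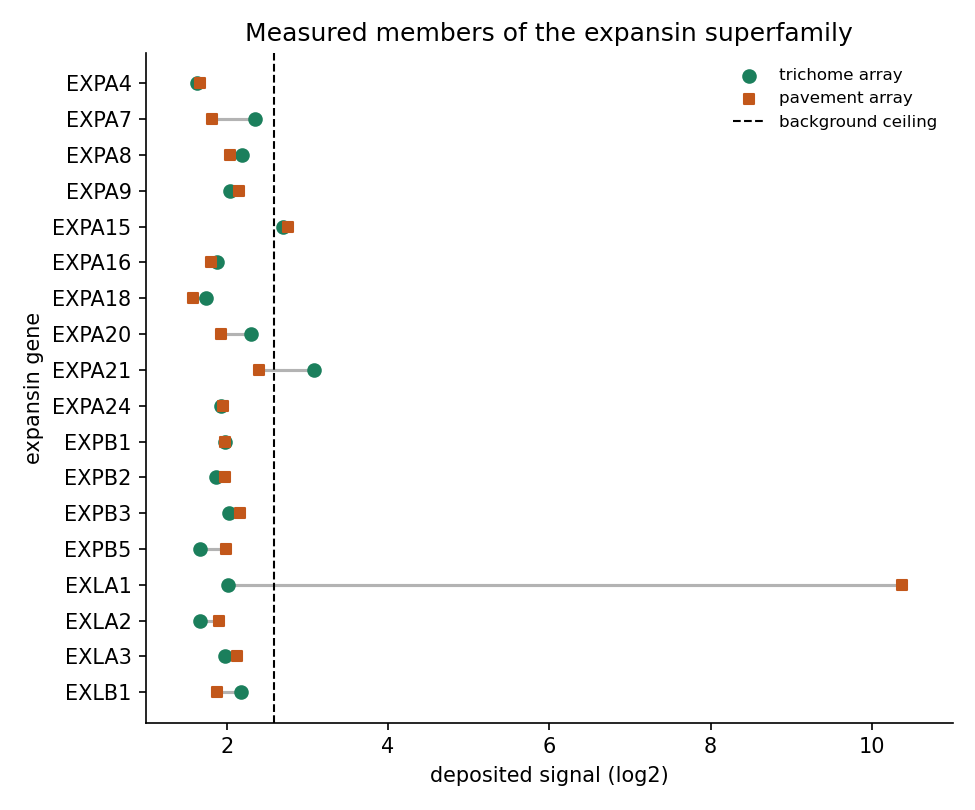
Deposited log2 signal (horizontal axis) of the 18 measured expansin genes (vertical axis) on the trichome array (circles) and the pavement array (squares), with the background ceiling dashed. The pavement reading of EXLA1, 10.4, stands alone, and the other readings above the ceiling are those of EXPA15 on both arrays and EXPA21 in trichome, the highest of them at 3.08.

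Of 43 listed genes of cellulose deposition, 3 had a probe set naming them alone in the annotation used, and they read unlike each other. COB was above background on both arrays. TBR (AT5G06700), whose loss lowers the crystalline cellulose in trichomes, had a pavement reading of 6.83 against a background reading of 2.07 in trichome, a fold of at least 19.0. KOR3, a membrane-bound endoglucanase of the KORRIGAN group that the RefSeq table names GH9A3, was at background, at 1.99 and 2.37. The cellulose synthase (CESA) and COBRA-like (COBL) genes were not analysed here.

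The remaining wall lists held 1 further gene with a 2-fold difference. Among the xyloglucan endotransglucosylase/hydrolases, which cut and rejoin xyloglucan chains, 10 of 33 were measured. XTH27 (AT2G01850, named EXGT-A3 in the table) read 6.02 in pavement and 2.99 in trichome, 8.18-fold higher in pavement, and XTH18 read 2.51 and 2.77. The other 8 were at background on both arrays. Relative to the hybridisation controls, XTH27 was near 0 (0.12), while TBR remained lower in trichome at -1.61 (at most -1.10 with its trichome reading at the ceiling).

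Genes for xyloglucan and pectin gave readings near background. Of 4 measured genes of the CSLC group, which make the xyloglucan backbone, CSLC4 alone exceeded background, at 2.68 in pavement and 2.40 in trichome. Of 4 pectin genes PME35 alone did, with the readings given above as PME61. Of 2 wall-sensing receptor kinases, THE1, which monitors the state of the wall when cellulose is short, read 2.995 in pavement and 2.82 in trichome, and FER was at background. No proton pump of the plasma membrane had a probe set naming it alone in the annotation used, which leaves out 8794 of the 22810 probe sets.

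Over all 7 wall lists, 41 of 218 listed genes were measured and 31 stayed at background in both saps, against 10732 of all 13356 genes. At or above the floor were 26 wall genes, of which 3 (11.5%) exceeded 2-fold in pavement, against 8.31% of all genes, and 0 did in trichome, against 1.19%. Above background on at least 1 array were 10 wall genes and 2624 of all genes. With background readings raised to the ceiling, 3 wall genes and 542 of all genes exceeded 2-fold in pavement, and 0 and 43 in trichome. The 3 were EXLA1, TBR and XTH27. The median difference was -0.06 over the 41 genes and 0.02 over all 13356 genes. Without EXLA1, EXPA8 and COB, 2 of 23 wall genes (8.70%) were higher in pavement.

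The chromosomal neighbours of the 3 genes were looked up in the gene order of the RefSeq assembly TAIR10.1, outside the rule for named genes. Within 10 protein-coding genes on either side of EXLA1, 10 of 20 were measured, and all 10 were at background on both arrays. Their highest pavement reading was 2.18. EXLA3 is the gene directly next to EXLA1. Around EXPA8 11 genes were measured, of which 1, the adjacent AT2G40620, exceeded background, at 2.67 in trichome. Around COB 6 were measured, all at background, with readings up to 2.54 in trichome and 2.45 in pavement. Readings above 2.21 count as background only by the single Bacillus probe set that set the ceiling. Of all 13356 genes, 10732 were at background on both arrays.

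**Figure D5:**
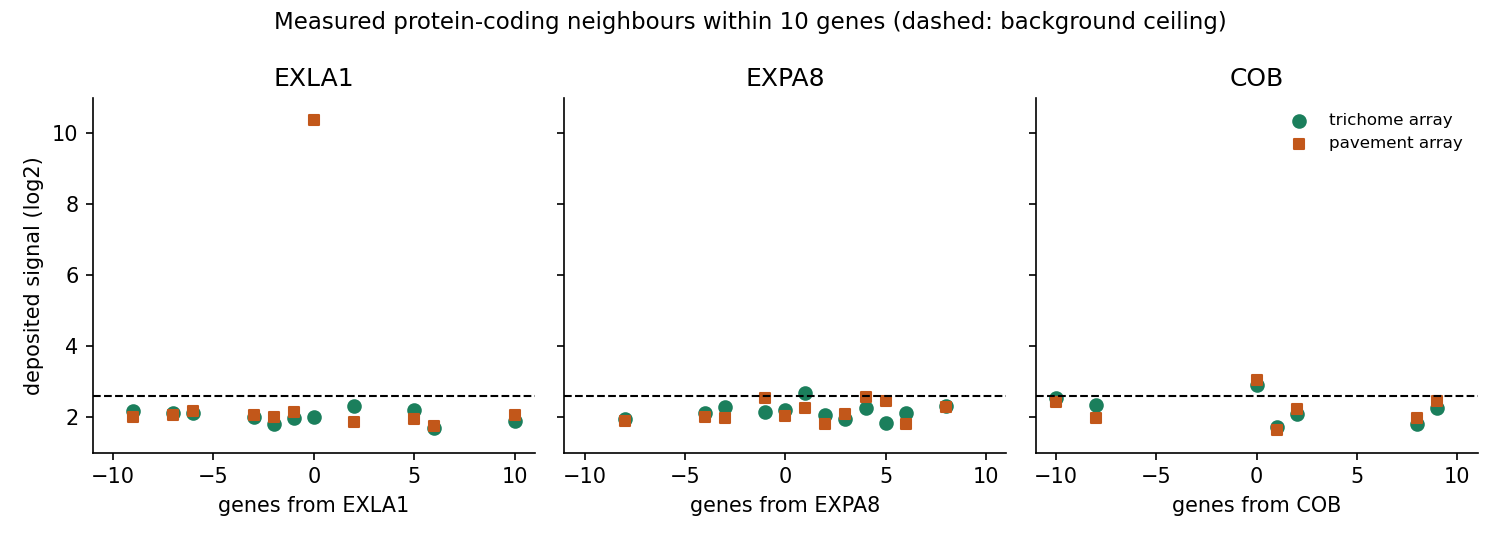
Deposited log2 signal (vertical axis) on the trichome array (circles) and the pavement array (squares) of the measured protein-coding genes within 10 genes of EXLA1, EXPA8 and COB, by their order along the chromosome (horizontal axis, the named gene at 0), with the background ceiling dashed. The pavement reading of EXLA1 at 10.4 has no counterpart among its measured neighbours, which reach 2.18 in pavement.

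Markers of other cell types were read beside these results. The mesophyll list of photosynthesis genes had 4 of 28 members measured (LHCB4.1, LHCB4.2, RCA and PSAE-1), and 4 of 4 were 2-fold or more higher in pavement, with readings from 8.85 to 9.42 in pavement and from 3.67 to 3.97 in trichome. EXLA1 was called in the same direction, as were 8.31% of the 8168 genes that reached the floor and all 53 other genes that read 9 or more in pavement. For those 53 the direction was nearly fixed by the choice on pavement reading. Unlike EXLA1, all 4 mesophyll genes were above background in trichome. Their linear signals summed to 2211 in pavement and 56.8 in trichome. The part of mesophyll RNA in the EXLA1 reading was not tested. The guard cell list had 3 of 14 measured, FMA, MUTE and SPCH, from 2.62 to 2.96 in trichome and at background in pavement. Their differences, 0.61 to 0.90, were within the 0.95 spread between probe sets but above the 0.52 over all genes with several probe sets. With 1 array per group, no direction is read from them. Of all genes, 12.2% were above background in trichome. SWEET11, the 1 vascular gene of 15, was at background. For the labelled cell types, 5 of 23 trichome genes were measured, of which SIM alone exceeded background (2.79 in trichome, 2.06 in pavement) and TRY, MYC1, GIS and AN did not. Of 16 epidermal genes 1 was measured, WSD1, at background on both arrays.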

How the data were processed

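The authors deposited 1 log2 signal for each probe set and array, computed by RMA according to the submitters' processing notes. Its version and which arrays it normalized together were not given in the sources used here. That the values are log2 was inferred from their span, 1.28 to 14.2. No detection call came with them, and precision is limited by the number of arrays. Of 22810 probe sets, 13513 name exactly 1 gene in the platform annotation of 2016, 503 name several and 8794 are not listed there. Names were updated through the RefSeq table of TAIR10.1 (13436 matched), and probe sets of a gene were averaged, giving 13356 genes. The probes' genome build was not stated, so coordinates are left out. Lists were matched by symbol, with TBR, FDH, PDF2 and PME1 fixed by locus and GLUC left out, because its symbol named no single wall gene.

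No p-value was computed, with 1 array per group. A gene was counted at a difference of at least 1 (2-fold) with its higher value at or above 2.05. Named were EXLA1, EXPA8 and COB, the 5 nearest genes to each above background, the measured expansins and cellulose genes, and up to 8 genes above background per other wall list. The members, lists and background ceiling were chosen with earlier results of these data known. Alternatives were array medians, lowess (span 0.3), hybridisation controls, quantile normalization, the ceiling, the brightest probe set and no floor. Counting and lowess were tested on simulated data. Python 3.11.15, pandas 2.3.3 and statsmodels 0.14.6 were used.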

Additional observations from a re-analysis of the deposited data

Results flagged for a closer look

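A probe set that names both EXP26 and EXPA22 lay outside the gene comparison, which used probe sets naming 1 gene. It read 2.88 in trichome, above the background ceiling, and 2.05, at background, in pavement, at least 1.23-fold higher in trichome. The other shared expansin probe set, for EXPA25 and EXPA23, was at background at 2.06 and 1.87.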

How the results depend on the processing

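The differences of EXLA1, EXPA8 and COB moved by less than the spread between probe sets with array medians centred. With background readings raised to the ceiling EXLA1 stood at -7.79, a move within the 0.95 spread but wider than the 0.52 over all genes with several probe sets. That setting puts EXPA8 at 0 and cannot change COB. Taking the brightest probe set cannot change any of the 3, which have 1 probe set each. For EXLA1 the difference of -8.36 was -4.85 with lowess, -6.41 with quantile normalization and -5.21 relative to the hybridisation controls, and lower in trichome in each, all against a trichome reading at background. Relative to the controls, which adds 3.15 to every difference, EXPA8 stood at 3.30 and COB at 2.99. The 679 genes higher in pavement and 97 in trichome became 335 and 269 with lowess and 346 and 374 with quantile normalization. They became 86 and 7881 relative to the controls, and 542 and 43 with background readings raised to the ceiling. Of wall genes, 0 were 2-fold higher in trichome as deposited, 1 (EXPA21, at 1.11) with quantile normalization and 23 relative to the controls. Just 10 wall genes, and 2624 of all genes, were above background on at least 1 array. Most of the 23 and of the 7881 were therefore at background on both arrays, where no scaling gives a direction. The 3 wall genes higher in pavement became 2 relative to the controls, and 2 without EXLA1, EXPA8 and COB, a count chosen after the data were seen. The causes were not tested. No paired analysis was possible because each group has 1 array. For the same reason no array could be left out. Signal at background limits EXPA8 and the trichome side of EXLA1, and COB read only 0.31 and 0.47 above the ceiling in trichome and pavement.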
